A study of Mus musculus with 12 samples.

Results

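Respiratory complex I is the NADH:ubiquinone oxidoreductase of the mitochondrial inner membrane, and its nuclear-encoded subunits carry the Nduf gene names. Members were taken by name: every row of the expression table whose mouse symbol was Nduf followed by a, b, c, s or v and a number, or Ndufab1, with a mean of at least 10 normalised read counts over the 8 mixed-culture libraries. This rule gave 37 genes of the 36229 rows in the table. All 37 names that matched the pattern also passed the level, so no gene lay just outside it. The lowest mean was that of Ndufs5, at 44.1, and the next that of Ndufb4, at 112.06. Ndufb1, a small membrane-arm subunit, was not analysed here. All 37 members had reads in each of the 12 libraries, and all 37 entered the tests.

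Complex I takes electrons from NADH at the tip of an arm that reaches into the matrix, passes them along a chain of iron-sulfur clusters to ubiquinone, and couples this to proton pumping by an arm within the membrane. The catalytic core of the matrix arm is encoded in the nucleus and that of the membrane arm in mitochondrial DNA. Around this core sit accessory subunits, which are needed for assembly and stability. When myoblasts fuse into myotubes, genes of oxidative phosphorylation are known to rise as the cells leave the cell cycle. Rb1 encodes the retinoblastoma protein, which holds E2F target genes in check and is required for muscle differentiation. Kdm5a encodes a demethylase of lysine 4 of histone H3 that binds the retinoblastoma protein.

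The cells were C57BL/6 mouse embryonic fibroblasts turned towards muscle by an adenovirus carrying MyoD, the master regulator of the muscle lineage. All groups received the virus for 24 h in differentiation medium, which held insulin at 10 µg/ml and 2% horse serum, followed by 72 h in fresh medium. Mixed cultures came from 4 genotypes with 2 libraries each: wild type (WT), Kdm5a-/- (Kdm5a KO), Rb1-/- (Rb1 KO) and Kdm5a-/-; Rb1-/- (double knockout, DKO). Their RNA was depleted of ribosomal RNA and read as 40 bases. Myotubes purified by size, again with 2 libraries each, came from WT and DKO and were left to recover for 24 h. Their RNA was selected with oligo(dT), amplified for 15 cycles and read as 36 bases. The labels do not say whether the 2 libraries of a group came from separate embryos or cultures, so p-values measure the spread between these libraries, which may be technical. A mixed culture can hold unconverted cells beside myotubes, and in such a bulk sample fewer cells of a type and less RNA per cell cannot be told apart.

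The libraries held between 8688604 and 41309134 recovered reads. The 2 DKO libraries of purified myotubes stood apart from each other: members differed between them by a median of 0.463 on the log2 scale, against 0.0722 to 0.124 between the replicates of the 5 other groups. In this pair 29 of 37 members were higher in replicate 1, against 27 in purified WT and 18 to 23 in the mixed groups. The spread was not limited to the members. Rows with a mean of at least 10 in the group differed by a median of 0.499 in this pair. In the 5 other groups this median was 0.107 to 0.176. Kdm5a ranged from 1637 to 1871 normalised counts in WT and from 1088 to 1192 in Kdm5a KO mixed cultures. Rb1 ranged from 5616 to 5649.5 in WT and from 4448 to 4457 in Rb1 KO mixed cultures. The DKO mixed cultures did not show this drop: their Rb1 totals, 5309 and 5662, lay on either side of the WT range. Kdm5a KO mixed cultures had Rb1 at 5079 and 5193. After purification Rb1 was at 2356 and 2104 in DKO myotubes, below 3499.5 and 3218 in those of WT. Not given in the sources used here is the part of each gene that its allele removes, so a total over the whole gene does not check the labels. Xist, expressed from an inactive X chromosome, was at 0 in the WT and Rb1 KO mixed cultures and between 3109.9 and 6933 in Kdm5a KO and DKO mixed cultures. Ddx3y, on the Y chromosome, was at 0 in Kdm5a KO and DKO libraries and between 1079.8 and 3319 in the others. Differences between genotypes with and without Kdm5a and these sex-linked differences therefore cannot be told apart. The 2 comparisons of Rb1 loss, within WT and within Kdm5a KO, do not cross this split, but the levels differed within them. Ddx3y was at 3319 and 3308 in WT and 1267 and 1079.8 in Rb1 KO mixed cultures. Xist was at 3109.9 and 3251 in Kdm5a KO and 6933 and 6809.7 in DKO mixed cultures.

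The summed level of the members followed the Rb1 genotype. It was 39277 and 38129 normalised counts in the WT mixed cultures, 43384 and 43554 in Kdm5a KO, 17825 and 17516 in Rb1 KO, and 20635 and 20478 in DKO. Both genotypes without Rb1 lay below both genotypes with it, and no library overlapped between any pair of the 4 genotypes. Rb1 KO held 45.7% of the WT sum, Kdm5a KO 112% and DKO 53.1%, or 116% of Rb1 KO. In purified myotubes the sum was 46628 and 44801 in WT against 35995 and 27911 in DKO, which came to 69.9% of WT. The skeletal muscle markers summed to 440510.1 to 471282 in WT, 417619 to 438285 in Kdm5a KO, 68829 to 69680 in Rb1 KO and 182367 to 196748 in DKO mixed cultures. All 13 of these markers were above 0 in every library, among them Myog, the myogenic factor of early differentiation. Between Rb1 KO and DKO the muscle marker sum thus moved far more than the complex I sum.

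**Figure D1:**
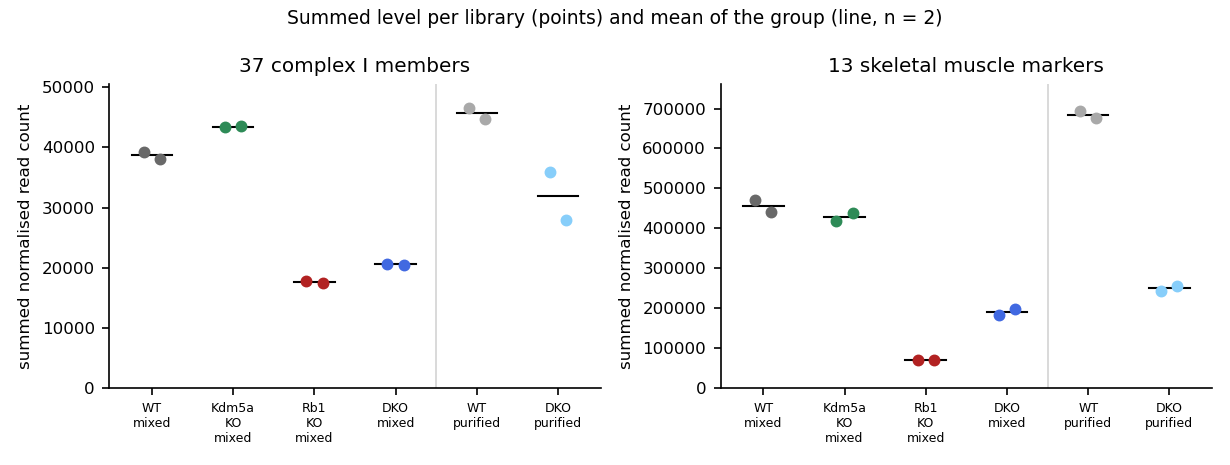
Summed normalised read count of the 37 complex I members (left) and of 13 skeletal muscle markers (right) in each library, grouped by genotype and culture; points are libraries and lines are means of 2. The complex I sum is 17516 to 20635 in the mixed cultures without Rb1 and 38129 to 43554 in those with it, while the muscle markers are at 68829 to 69680 in Rb1 KO and 182367 to 196748 in DKO.

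Levels per kilobase of transcript spread widely among the members. In WT mixed cultures Ndufb9 was highest, at 3379.6 normalised counts per kilobase, followed by Ndufc2 at 3127 and Ndufa9 at 1902, and Ndufs5 was lowest at 53.2. Ndufb9 stayed at rank 1 in all 4 mixed groups, and Ndufs5 was at rank 37 in all 6 groups. Ndufa9 moved from rank 3 in WT and rank 2 in Kdm5a KO to rank 17 in Rb1 KO and rank 7 in DKO mixed cultures. Ndufa4 moved from rank 8 in WT to rank 2 in both Rb1 KO and DKO. The lengths are those of the longest principal transcript in GENCODE M21, which for Ndufb2, at 4371 bases, and Ndufab1, at 3479 bases, are far above those of the other members, so their low ranks rest on that choice. Short reads from near-identical pseudogenes may also be lost or shared: 25.2% of the 36-base words of Ndufs5 and 18.9% of those of Ndufb4 occur in other annotated genes, and 14 members share 10% or more of their words or exons with another gene.

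Most members were lower without Rb1. Against WT, 30 of 37 fell, 3 rose and 4 did not pass the test in Rb1 KO mixed cultures, with a median log2 difference of -0.965, whereas over all 17199 rows tested 34.3% fell and 36.8% rose, with a median of 0.03. In the Kdm5a KO background, DKO against Kdm5a KO gave 32 falls, 1 rise and 4 members that did not pass, with a median of -0.955, beside 33.4% of all rows falling and 33.7% rising. These comparisons share no library, but both came from 1 fit with a shared estimate of the spread, so their calls are not independent. A fall in both was found for 29 of 37 members, beside 24.4% of all rows. Of the members that fell in the one and in the other, these were 29 of 30 and 29 of 32. Over all rows 4200 fell in both, of 5901 that fell in Rb1 KO against WT and 5749 in DKO against Kdm5a KO. All libraries of WT lay above all libraries of Rb1 KO for 31 members, beside 40.4% of all rows. Muscle markers were lower in Rb1 KO as well, as given above. Fibroblast markers, such as the collagen gene Col1a1, summed to 10166 and 10621 in WT and to 75479 and 91975 in Rb1 KO. Markers of proliferating cells summed to 317 and 367 in WT and to 13685 and 12356 in Rb1 KO, and of the 6 Ccnb1 was at 0 in WT replicate 1. The part of these cell markers in the fall of the members was not tested.

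Of the 6 nuclear core subunits described here, 5 were lower in Rb1 KO against WT and all 6 were lower in DKO against Kdm5a KO. Ndufv1, which holds the NADH-binding site, was at 2401 and 2219 in WT, 3016 and 3104 in Kdm5a KO, 1002 and 929 in Rb1 KO and 1089.9 and 1155 in DKO. Every mixed-culture library without Rb1 was below every mixed-culture library with it. The difference from WT in Rb1 KO was -1.26 ± 0.071 (SE, limma adjusted p = 5.28e-09). Ndufv2 and Ndufs1 carry iron-sulfur clusters beside it. Ndufv2 was at 2133 and 2040.2 in WT, 2253 and 2362 in Kdm5a KO, 928 and 1018 in Rb1 KO and 1153 and 1047 in DKO. Ndufs1, the largest core subunit, was at 3362 and 3455 in WT, 3882 and 3766 in Kdm5a KO, 1465 and 1423 in Rb1 KO and 1816 and 1798 in DKO. Their log2 differences in Rb1 KO were -1.10 and -1.24, and the DKO libraries lay between those of Rb1 KO and WT for both.

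Among the core subunits towards ubiquinone, Ndufs7, which carries the last cluster before it, was at 1134 and 911 in WT, 1144 and 1079 in Kdm5a KO, 343 and 407 in Rb1 KO and 455 and 397 in DKO. Ndufs8, which carries the clusters that precede that one, was at 1156 and 1073 in WT, 995 and 1148 in Kdm5a KO, 423 and 380.1 in Rb1 KO and 511 and 593 in DKO. Mixed-culture groups with and without Rb1 did not overlap for either, and the differences in Rb1 KO were -1.44 ± 0.124 (SE, limma adjusted p = 3.1e-07) for Ndufs7 and -1.47 ± 0.107 (SE, limma adjusted p = 6.2e-08) for Ndufs8. Ndufs3, their neighbour, stood apart at 392 and 390.1 in WT, 526 and 531 in Kdm5a KO, 352 and 350.3 in Rb1 KO and 347 and 339.8 in DKO. Its difference in Rb1 KO was -0.155 ± 0.103 (SE, limma adjusted p = 0.198), which did not pass, and it fell in DKO against Kdm5a KO, with -0.62 ± 0.103 (SE, limma adjusted p = 0.000155). Ndufs3 shares 23.0% of its 36-base words with 3 other annotated genes, the pseudogenes Gm12251 and Gm11927 and the protein-coding gene Kbtbd4.

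Accessory subunits of the matrix arm changed in both directions: in Rb1 KO 6 of 9 fell, 2 rose and 1 did not pass. Over all rows 34.3% fell and 36.8% rose. Differences between the parts of the complex were not tested. The largest fall of all members was that of Ndufa9, a subunit with a nucleotide-binding fold at the joint of the arms, at 2599 and 2897 in WT, 4513 and 4457 in Kdm5a KO, 709 and 688 in Rb1 KO and 1074 and 1015 in DKO. The WT and Rb1 KO libraries were several-fold apart, with a difference of -1.97 ± 0.07 (SE, limma adjusted p = 7.56e-11). Ndufa6, a small LYR-motif protein that docks an acyl carrier protein, was at 1048 and 875 in WT, 1205 and 1220.3 in Kdm5a KO, 299.8 and 309.5 in Rb1 KO and 399.8 and 394 in DKO and differed by -1.65 ± 0.101 (SE, limma adjusted p = 1.16e-08). Ndufv3, a peripheral subunit near the NADH site, was at 987 and 1061 in WT, 1448 and 1508 in Kdm5a KO, 504 and 444 in Rb1 KO and 444 and 450 in DKO and differed by -1.11 ± 0.09 (SE, limma adjusted p = 1.76e-07). Falls of Ndufa2, Ndufa7 and Ndufs4 were smaller, with log2 differences from -0.88 to -0.34, and Ndufs6, a zinc-binding subunit that joins late in assembly, did not pass.

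Ndufa12 and Ndufa5 of the same arm went the other way. Ndufa12, which takes the place of the assembly factor Ndufaf2 in the finished complex, was at 243 and 177 in WT, 216 and 240.1 in Kdm5a KO, 323 and 325 in Rb1 KO and 148 and 146 in DKO. Among mixed cultures both Rb1 KO libraries were above all others, and both DKO libraries below all others. The rise in Rb1 KO was 0.64 ± 0.168 (SE, limma adjusted p = 0.00424) and the fall in DKO against Rb1 KO -1.13 ± 0.168 (SE, limma adjusted p = 0.000127). Ndufa5, which sits on the quinone-reducing module, was at 111 and 94.9 in WT, 141 and 167 in Kdm5a KO, 163 and 152 in Rb1 KO and 234 and 200.3 in DKO, and each knockout lay above WT. Its rise was 0.61 ± 0.184 (SE, limma adjusted p = 0.0095) in Rb1 KO and 1.07 ± 0.184 (SE, limma adjusted p = 0.000207) in DKO. Ndufab1, the mitochondrial acyl carrier protein that also serves fatty acid synthesis outside complex I, was at 397 and 414 in WT, 451 and 410.3 in Kdm5a KO, 666 and 529 in Rb1 KO and 509 and 479 in DKO. It rose in Rb1 KO by 0.55 ± 0.121 (SE, limma adjusted p = 0.00128), and its difference in DKO against WT was 0.285 ± 0.121 (SE, limma adjusted p = 0.0535). Ndufa12 and Ndufab1 share 19.7% and 10.8% of their 36-base words with other genes, so part of their reads may be misassigned.

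Membrane-arm accessory subunits were lower in Rb1 KO with few exceptions. In the proximal part 8 of 9 fell in Rb1 KO, with a median of -0.927, and in the distal part 9 of 10, with a median of -1.237. Over all rows 34.3% fell. Ndufc2, a proximal subunit, was at 2206 and 2066 in WT, 1867 and 1686 in Kdm5a KO, 656 and 644 in Rb1 KO and 858 and 826 in DKO and differed by -1.71 ± 0.077 (SE, limma adjusted p = 6.15e-10) in Rb1 KO. Ndufa10, which has the fold of a nucleoside kinase, was at 2644 and 2418 in WT, 2621 and 2785 in Kdm5a KO, 801 and 815 in Rb1 KO and 1140.4 and 1201 in DKO and differed by -1.64 ± 0.071 (SE, limma adjusted p = 4.19e-10). Both showed the same order, Rb1 KO lowest, DKO next, and both groups with Rb1 far above. In the distal part Ndufb10, a cysteine-rich subunit on the outer face, was at 1391 and 1129.9 in WT, 966 and 989 in Kdm5a KO, 425 and 404 in Rb1 KO and 398 and 465 in DKO and differed by -1.595 ± 0.113 (SE, limma adjusted p = 4.64e-08). Ndufb9, a LYR-motif protein that binds an acyl carrier protein, was at 2337 and 2422 in WT, 2977 and 3153 in Kdm5a KO, 837 and 813 in Rb1 KO and 1363 and 1395 in DKO and differed by -1.53 ± 0.064 (SE, limma adjusted p = 3.39e-10). Ndufs5 and Ndufb3 were the exceptions of these parts and passed in neither comparison of Rb1 loss. Both were low, at 47.9 and 24.5 in WT, 50.6 and 63.7 in Kdm5a KO, 33.8 and 48.9 in Rb1 KO and 38.4 and 45 in DKO for Ndufs5 and 185 and 169 in WT, 229 and 183 in Kdm5a KO, 193 and 180.1 in Rb1 KO and 204 and 220.4 in DKO for Ndufb3. Ndufb4, also low, fell in Rb1 KO at a limma adjusted p of 0.0346, a call that was lost without Rb1 KO replicate 1 or either WT replicate, and the call of Ndufa7 was lost without Rb1 KO replicate 2 or WT replicate 1.

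**Figure D2:**
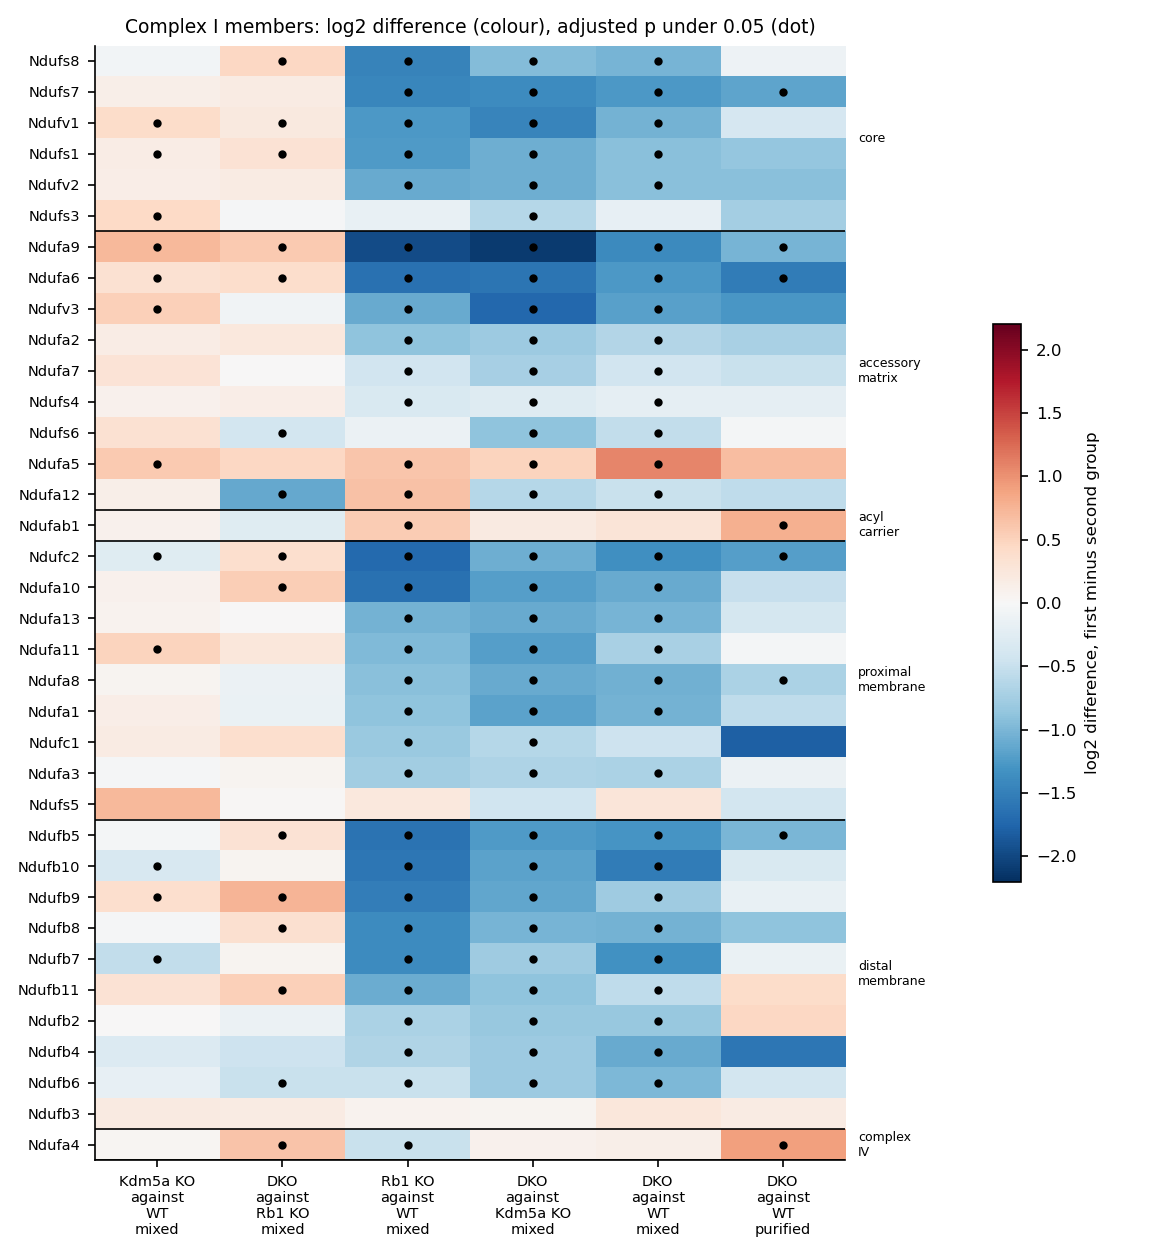
Log2 difference (colour, red for higher and blue for lower in the group named before "against") of 36 of the 37 members in 6 comparisons; dots mark an adjusted p under 0.05 and lines separate the parts of the complex. The Rb1 KO against WT and DKO against Kdm5a KO columns are mostly blue, with 30 and 32 falls among all 37 members, while the Kdm5a KO against WT and DKO against Rb1 KO columns are pale, with 9 and 12 rises.

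The promoters of 5 members are shown because these genes cover the different responses to Rb1 loss. Ndufa9 and Ndufa6 fell most among the matrix-arm accessory subunits, Ndufa12 and Ndufab1 rose, and Ndufa4, described below, followed a course of its own. The sequences are the 150 bases before the RefSeq start (GRCm38.p6), 5′ to 3′ on the strand of the gene; capitals mark the words NRF1 core, CCAAT box or SP1 GC box listed in the next paragraph.
Ndufa9 (chr6:126849145-126849294, minus strand): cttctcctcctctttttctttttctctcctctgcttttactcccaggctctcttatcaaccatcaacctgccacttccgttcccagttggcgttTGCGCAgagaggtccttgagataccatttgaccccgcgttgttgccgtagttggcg
Ndufa6 (chr15:82354292-82354441, minus strand): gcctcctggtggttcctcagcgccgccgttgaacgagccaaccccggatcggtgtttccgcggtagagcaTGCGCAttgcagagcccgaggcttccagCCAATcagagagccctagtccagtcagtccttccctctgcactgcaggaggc
Ndufa12 (chr10:94198885-94199034, plus strand): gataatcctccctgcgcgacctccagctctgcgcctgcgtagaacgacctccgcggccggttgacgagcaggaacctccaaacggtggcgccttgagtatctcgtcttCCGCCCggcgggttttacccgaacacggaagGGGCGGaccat
Ndufab1 (chr7:122101849-122101998, minus strand): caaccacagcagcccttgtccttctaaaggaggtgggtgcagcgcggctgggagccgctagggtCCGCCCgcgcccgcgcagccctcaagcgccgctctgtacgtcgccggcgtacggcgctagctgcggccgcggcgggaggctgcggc
Ndufa4 (chr6:11907451-11907600, minus strand): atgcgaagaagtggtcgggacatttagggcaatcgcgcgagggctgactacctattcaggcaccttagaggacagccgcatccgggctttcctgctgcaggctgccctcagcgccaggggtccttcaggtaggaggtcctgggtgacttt

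RefSeq windows from 250 bases before to 50 bases after the start were matched to 33 members by symbol. With 1 window per gene, both strands were searched for 9 short words, and the share of members with a word was set beside that of all 27025 genes in the table. Those genes were not restricted by level, while all members had reads in every library. Expressed genes with promoters of like base content were not compared separately. The NRF1 core TGCGCA was in 10 of 33 windows, or 30.3%, against 8.1% of all genes. The YY1 core ATGGCGG was in 8 of 33, or 24.2%, against 4.2%, and in many genes this word also spans the start codon. The ETS core CCGGAAG, bound by the GABP factors, was in 12.1% against 9.1%, the half-site of oestrogen-related receptors AAGGTCA in 9.1% against 4.7%, and the GC box GGGCGG in 45.5% against 35.9%. The E-box CAGCTG, a MyoD site, was in 12.1% against 16.1%, and CCAAT in 30.3% against 37.9%. The E2F words TTGGCGC and TTCCCGC were in 0 and 1 of the 33 windows, against 2.5% and 4.7% of all genes. Words of different factors may overlap, and a match describes letters, not binding. In the Ndufa9 window the NRF1 core began 56 bases before the start, and in the Ndufa6 window it occurred 80 bases before and 28 bases after it. The Ndufa4 window held none of the 9 words.

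Fewer members differed between Kdm5a KO and WT. In Kdm5a KO against WT 9 rose, 3 fell and 25 did not pass, with a median of 0.135, beside 13.4% of all rows rising and 13.8% falling, with a median of 0.005. All libraries of Kdm5a KO were above those of WT for 17 members and below them for 5, beside 31.1% and 29.9% of all rows. Ndufa9 had the largest rise among the members that passed, 0.71 ± 0.07 (SE, limma adjusted p = 1.79e-05), from the levels given above, and it also had the largest fall in Rb1 KO. The next were Ndufa5, with 0.57 ± 0.184 (SE, limma adjusted p = 0.0357), Ndufv3, with 0.53 ± 0.09 (SE, limma adjusted p = 0.000972), and Ndufa11. Ndufa11, a subunit of the proximal membrane arm, was at 427 and 381 in WT, 572 and 561 in Kdm5a KO, 178 and 238 in Rb1 KO and 252 and 236 in DKO. Of the core subunits Ndufs1, Ndufs3 and Ndufv1 rose. The calls of Ndufa11, Ndufa5 and Ndufa6 were lost without either Kdm5a KO replicate or without WT replicate 2, that of Ndufs1 also without WT replicate 1, and those of Ndufa5 and Ndufs1 without either DKO replicate. Without Kdm5a KO replicate 1 or 2, 7 and 6 members passed in place of 12.

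The falls in Kdm5a KO were Ndufb7, Ndufb10 and Ndufc2, all of the membrane arm. Ndufb7, a cysteine-rich subunit on the side of the intermembrane space, was at 982 and 1069 in WT, 729 and 678 in Kdm5a KO, 415 and 370.2 in Rb1 KO and 437 and 380.1 in DKO, with no overlap between Kdm5a KO and WT. It differed by -0.54 ± 0.107 (SE, limma adjusted p = 0.00255), Ndufb10 by -0.36 ± 0.113 (SE, limma adjusted p = 0.0324) and Ndufc2 by -0.27 ± 0.077 (SE, limma adjusted p = 0.0218). The calls of Ndufb10 and Ndufc2 were lost without WT replicate 1 and without Kdm5a KO replicate 2, and that of Ndufb10 also without Kdm5a KO replicate 1. By part, 4 of 9 matrix accessory members rose and the other 5 did not pass, while in the distal membrane arm 1 rose, 2 fell and 7 did not pass. Of 41 nuclear genes of complexes II to V, 4 rose and 37 did not pass, beside 13.4% of all rows rising and 13.8% falling. Cell markers moved in this comparison too: of the 13 skeletal muscle markers 9 fell, 2 rose and 2 did not pass, with a median of -0.332. Myog was at 16127 and 18252 in WT, 8748 and 8969 in Kdm5a KO, 10378 and 10372 in Rb1 KO and 13309 and 12735 in DKO, and Ckm, the muscle creatine kinase, at 2827 and 2456 in WT, 1293 and 883 in Kdm5a KO, 284 and 274 in Rb1 KO and 1213 and 1167 in DKO. Both fell in Kdm5a KO, with -0.95 ± 0.057 (SE, limma adjusted p = 3.83e-07) and -1.30 ± 0.139 (SE, limma adjusted p = 3.22e-05), while Myh3, the embryonic myosin heavy chain, rose, with 0.42 ± 0.051 (SE, limma adjusted p = 7.36e-05). Of the 6 proliferation markers 3 rose and 3 did not pass, with sums of 559 and 613 in Kdm5a KO against 317 and 367 in WT, and of the 9 fibroblast markers 4 rose and 3 fell. The part of these markers in the differences of the members was not tested.

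Between DKO and Rb1 KO cultures, 12 members were higher in DKO, 3 were lower and 22 did not pass, with a median of 0.177, beside 23.1% of all rows higher and 24.2% lower, with a median of -0.01. All libraries of DKO were above those of Rb1 KO for 19 members, beside 37.9% of all rows. Ndufb9 rose most, by 0.74 on the log2 scale, from 837 and 813 to 1363 and 1395 (limma adjusted p = 1.22e-06). It was followed by Ndufa4, Ndufa9, with 0.58 ± 0.07 (SE, limma adjusted p = 2.27e-05), and Ndufa10, with 0.53 ± 0.071 (SE, limma adjusted p = 4.84e-05). The core subunits Ndufs1, Ndufv1 and Ndufs8 also rose, with log2 differences of 0.32, 0.22 and 0.46. For all of these but Ndufa4, DKO remained below WT in every library. Of the 41 nuclear genes of complexes II to V, 20 rose, 1 fell and 20 did not pass, with a median of 0.251. The summed muscle markers were higher in DKO than in Rb1 KO in every library, and fibroblast markers lower, at 13694 and 14523 in DKO against 75479 and 91975 in Rb1 KO. Proliferation markers were higher, at 27674 and 27822 against 13685 and 12356. The part of these markers in the differences between the groups was not tested.

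The falls in DKO against Rb1 KO were Ndufa12, given above, Ndufb6 and Ndufs6. Ndufb6, a distal membrane-arm subunit, was at 785 and 834 in WT, 721 and 699 in Kdm5a KO, 536 and 616 in Rb1 KO and 407 and 408 in DKO and differed by -0.495 ± 0.097 (SE, limma adjusted p = 0.00107). Ndufs6 was at 254 and 291 in WT, 372 and 320 in Kdm5a KO, 239 and 256 in Rb1 KO and 177 and 198 in DKO and differed by -0.40 ± 0.145 (SE, limma adjusted p = 0.0368), a call that was lost without either DKO or either Rb1 KO mixed replicate. Ndufb6 shares 39.0% of its exonic bases with another annotated gene, Smim27. Without DKO replicate 1 the calls of Ndufa6 and Ndufb8 were lost as well, without DKO replicate 2 those of Ndufs8 and Ndufv1, and without Rb1 KO replicate 2 those of Ndufb8 and Ndufv1. The same 5 members, Ndufa9, Ndufb9, Ndufa6, Ndufs1 and Ndufv1, were higher without Kdm5a both with Rb1 present and with Rb1 absent. They are 5 of 37 members, beside 4.48% of all rows higher in both. Of the members that rose in the one comparison and in the other, they are 5 of 9 and 5 of 12. Over all rows 770 rose in both, of 2308 in Kdm5a KO against WT and 3965 in DKO against Rb1 KO. These 2 comparisons share no library, but both came from 1 fit with a shared estimate of the spread. Both also follow the split in Xist and Ddx3y.

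Whether the effect of Kdm5a loss differed with and without Rb1 was tested directly by the interaction. It passed for 11 of 37 members, 7 with a higher and 4 with a lower value of the Kdm5a effect when Rb1 was absent, beside 18.8% and 19.5% of all rows. Members thus passed at a share close to that of all rows for higher values and below it for lower ones. The largest positive value was that of Ndufc2, with 0.64 ± 0.108 (SE, limma adjusted p = 0.000538): it was lower without Kdm5a when Rb1 was present and higher without Kdm5a when Rb1 was absent. Ndufb7 followed with 0.60 ± 0.151 (SE, limma adjusted p = 0.00748), Ndufa4 with 0.58 ± 0.106 (SE, limma adjusted p = 0.000947) and Ndufs8 with 0.52 ± 0.152 (SE, limma adjusted p = 0.017). The largest negative value was that of Ndufa12, with -1.27 ± 0.238 (SE, limma adjusted p = 0.00112), ahead of Ndufs6, with -0.75 ± 0.205 (SE, limma adjusted p = 0.0123), Ndufv3, with -0.61 ± 0.128 (SE, limma adjusted p = 0.00231), and Ndufs3, with -0.47 ± 0.146 (SE, limma adjusted p = 0.0237). Ndufa12 rose when Rb1 was lost alone and fell when both genes were lost, so the DKO level did not lie between the single knockouts. Without Kdm5a KO replicate 1 the number of members that passed was 7, and the calls of Ndufs3, Ndufs6, Ndufs8 and Ndufb5 were lost. The call of Ndufs3 was also lost without Kdm5a KO replicate 2 or either DKO replicate, that of Ndufs6 without DKO replicate 1, and that of Ndufs8 without DKO replicate 2 or Rb1 KO replicate 2.

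**Figure D3:**
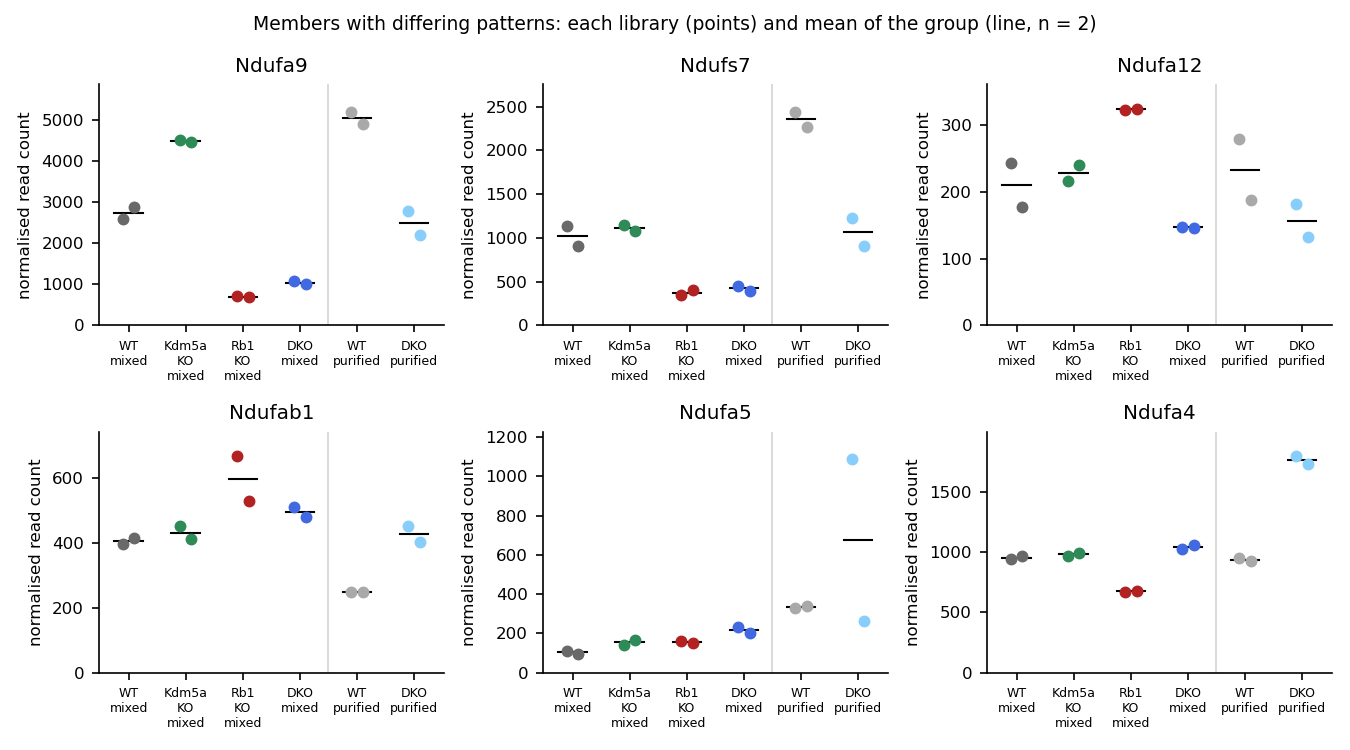
Normalised read count of 6 members in each library (points) with the mean of 2 (line). Ndufa9 and Ndufs7 are low in both groups without Rb1, Ndufa12 is highest in Rb1 KO (323 and 325) and lowest among mixed cultures in DKO (148 and 146), Ndufab1 and Ndufa5 are not lowered, and Ndufa4 is low in Rb1 KO (672 and 682) and highest in purified DKO (1795 and 1735).

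Against WT, the DKO mixed cultures showed 30 falls, 1 rise and 6 members that did not pass, with a median of -0.924, beside 33.9% of all rows falling and 34.0% rising. WT libraries were above all DKO libraries for 32 members, beside 42.3% of all rows. Ndufb10 fell most, with -1.54 ± 0.113 (SE, limma adjusted p = 8.14e-08), then Ndufa9, with -1.39 ± 0.07 (SE, limma adjusted p = 2.65e-09), Ndufc2, with -1.34 ± 0.077 (SE, limma adjusted p = 8.17e-09), and Ndufb7, with -1.33 ± 0.107 (SE, limma adjusted p = 2.01e-07). The rise was that of Ndufa5. The members that did not pass were Ndufs3, Ndufb3, Ndufs5, Ndufa4, Ndufab1 and Ndufc1. The smaller falls of Ndufa12, Ndufa7, Ndufs4 and Ndufs6 were lost when single WT or DKO libraries were left out. In DKO against Kdm5a KO the largest falls were Ndufa9, with -2.10 ± 0.07 (SE, limma adjusted p = 9.5e-11), Ndufv3, with -1.72 ± 0.09 (SE, limma adjusted p = 3.86e-09), Ndufa6, with -1.61 ± 0.101 (SE, limma adjusted p = 2.06e-08), and Ndufv1, with -1.45 ± 0.071 (SE, limma adjusted p = 2.18e-09), and Ndufa5 was again the rise, with 0.495 ± 0.184 (SE, limma adjusted p = 0.0301), a call that was lost without either DKO replicate or Kdm5a KO replicate 1. Among complexes II to V, 29 of 41 genes fell in DKO against WT and 2 rose, with a median of -0.675.

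In purified myotubes fewer members passed between DKO and WT. There 7 members fell, 2 rose and 28 did not pass, with a median of -0.486, beside 18.6% of all 16670 rows falling and 21.0% rising, with a median of -0.046. All 7 falls were also falls in the mixed DKO cultures, where 30 of 37 members fell. Of the 15917 rows tested in both materials 2208, or 13.9%, fell in both, while 3098 of the 16670 rows fell in purified DKO. WT libraries were above all DKO libraries for 25 members, beside 38.8% of all rows. Ndufa6 was at 1189 and 1244 in WT and 592 and 295 in DKO and fell most among those that passed, with -1.54 ± 0.365 (SE, limma adjusted p = 0.0265). Ndufc2 was at 971 and 919 in WT and 524 and 315 in DKO, with a difference of -1.22 ± 0.298 (SE, limma adjusted p = 0.029). Ndufs7 was at 2443 and 2272 in WT and 1231 and 906 in DKO, with a difference of -1.16 ± 0.227 (SE, limma adjusted p = 0.0152), and Ndufa9 at 5209 and 4903 in WT and 2791 and 2210.1 in DKO, with a difference of -1.025 ± 0.207 (SE, limma adjusted p = 0.0166). In each of these 4 both DKO libraries were below both WT libraries. Ndufa8 and Ndufb5 were also among the falls, but Ndufa8 did not pass in edgeR (adjusted p = 0.0649) or DESeq2 (adjusted p = 0.107), and Ndufb5 did not pass in edgeR (adjusted p = 0.0609). These counts depend on single libraries: without either WT replicate limma called 0 members, with 1 and 2 members at an unadjusted p under 0.05, and without DKO replicate 1 or 2 it called 28 and 23. With the other tools on all 4 libraries, edgeR called 7 members and DESeq2 8.

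Ndufa4 and Ndufab1 were the rises in purified DKO myotubes. Ndufa4 was at 954 and 924 in WT and 1795 and 1735 in DKO, with a difference of 0.91 ± 0.181 (SE, limma adjusted p = 0.0157), and Ndufab1 at 247 and 247 in WT and 450.5 and 403 in DKO, with a difference of 0.78 ± 0.215 (SE, limma adjusted p = 0.0396), and in neither did the groups overlap. DESeq2 did not call Ndufab1 (adjusted p = 0.0712). Ndufa5 was at 327 and 342 in WT and 1086 and 262 in DKO, where DKO replicate 1 was far above replicate 2, and did not pass. Other members with replicates far apart in DKO were Ndufa2, at 1759.6 and 563, and Ndufc1, at 192 and 29.3. The core subunits Ndufv1, Ndufv2, Ndufs1, Ndufs3 and Ndufs8 did not pass. Ndufv1 was at 3885 and 3792 in WT and 2869 and 3047 in DKO, Ndufs8 at 1392 and 1393 in WT and 1075 and 1549.8 in DKO and Ndufs3 at 374 and 337 in WT and 205 and 219 in DKO. Ndufv2 was at 1168 and 1104 in WT and 857 and 421 in DKO and Ndufs1 at 2324 and 2278 in WT and 1764 and 931 in DKO. Ndufs8 overlapped between the groups, while the other 4 of these, and Ndufs7, were lower in both DKO libraries. The purified DKO libraries still held proliferation markers at 27330.5 and 15642 in sum, against 411 and 539 in purified WT, where 1 of the 6 was at 0. The muscle marker sums were 242445 and 255165 against 692811 and 675405. Fibroblast markers summed to 24423 and 33036 in DKO against 13599.9 and 16743 in WT, and 4 of the 7 tested rose and 1 fell. The part of these markers in the differences was not tested.

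The DKO difference itself was compared between purified and mixed material over all 12 libraries. It was higher in purified myotubes for 9 members and did not pass for 28, beside 11.6% of all 17273 rows higher and 13.2% lower. No member passed with a lower value, with 1 member lower at an unadjusted p under 0.05, and edgeR called 0 and DESeq2 1 lower. The largest values were those of Ndufb2, with 1.29 ± 0.331 (SE, limma adjusted p = 0.0175), Ndufb10, with 1.199 ± 0.19 (SE, limma adjusted p = 0.00165), Ndufb7, with 1.17 ± 0.293 (SE, limma adjusted p = 0.0158), and Ndufb11, with 0.96 ± 0.22 (SE, limma adjusted p = 0.0107), all distal membrane-arm subunits. Ndufb2 was at 465 and 507 in WT, 489 and 482 in Kdm5a KO, 293 and 306 in Rb1 KO and 286 and 260.3 in DKO, and at 288 and 348 in WT and 327 and 584 in DKO. Ndufb10 was at 1699 and 1641 in WT and 1379 and 1259 in DKO and Ndufb7 at 980.5 and 906 in WT and 1093 and 656 in DKO. The DKO and WT libraries of purified myotubes overlapped for Ndufb2 and Ndufb7 and lay close together for Ndufb10, where the mixed cultures had been far apart. The calls of Ndufb2 and Ndufb7 were lost without DKO mixed replicate 2, without WT mixed replicate 2 and without WT purified replicate 1 for Ndufb2 or 2 for Ndufb7. RNA selection, read length and purification all differ between the materials and cannot be told apart. Without DKO purified replicate 1, 11 members were higher and 10 lower, and without replicate 2, 26 were higher and 1 lower.

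**Figure D4:**
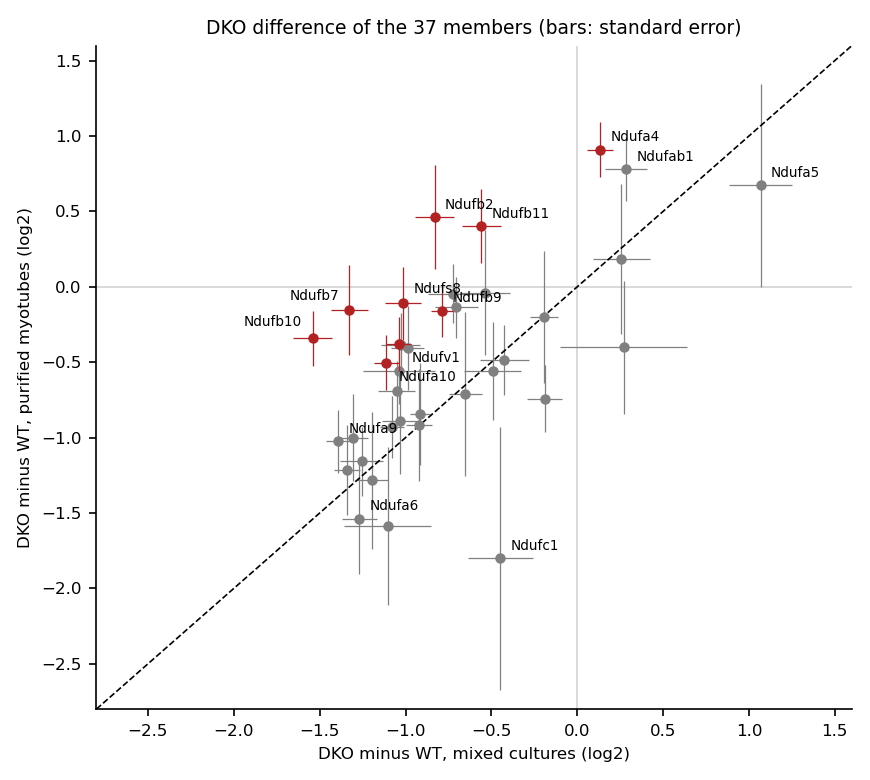
Log2 difference of DKO from WT for each of the 37 members in mixed cultures (horizontal axis) and purified myotubes (vertical axis); bars are standard errors, the dashed line marks equal values and red points are the 9 members whose 2 differences differed (adjusted p under 0.05). All red points lie above the line, Ndufb2 and Ndufb11 above 0 on the vertical axis only, and Ndufa9 and Ndufa6 are well below 0 on both.

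Ndufa4 keeps its complex I name but is now placed in complex IV, cytochrome c oxidase, and its course differed from that of the subunits. In mixed cultures it was at 940.4 and 965 in WT, 968 and 996 in Kdm5a KO, 672 and 682 in Rb1 KO and 1028 and 1062 in DKO. Rb1 KO was low, and the libraries of the other genotypes lay between 940.4 and 1062. It fell in Rb1 KO, with -0.49 ± 0.075 (SE, limma adjusted p = 6.78e-05), and rose in DKO against Rb1 KO, with 0.62 ± 0.075 (SE, limma adjusted p = 2.19e-05), while DKO against WT did not pass, with 0.13 ± 0.075 (SE, limma adjusted p = 0.134). Its relative Ndufa4l2, known to rise in low oxygen, was close to 0 in most libraries, at 0 and 1.07 in WT, 12.2 and 11.8 in Rb1 KO and 6.84 and 5.53 in DKO mixed cultures. In purified myotubes it was listed at 0 in both WT libraries and at 6.5 and 44 in DKO.

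The 2 members on the X chromosome were examined because the genotypes differ in Xist. Ndufa1, a small membrane subunit, was at 209 and 194 in WT, 237 and 209 in Kdm5a KO, 87.8 and 133 in Rb1 KO and 96.3 and 99.2 in DKO. Ndufb11 was at 420 and 416 in WT, 515 and 531 in Kdm5a KO, 199.8 and 192 in Rb1 KO and 281 and 286 in DKO. Kdm5a KO against WT did not pass for either in the main fit, with 0.14 ± 0.21 (SE, limma adjusted p = 0.656) and 0.32 ± 0.113 (SE, limma adjusted p = 0.0527). For Ndufb11 it did pass in edgeR (adjusted p = 0.0346) and in limma with a pseudocount of 0.1 (adjusted p = 0.0484). Both genes fell in Rb1 KO, with log2 differences of -0.89 and -1.09, a comparison in which Xist was at 0 in all 4 libraries. In DKO against Rb1 KO, Ndufb11 rose, with 0.53 ± 0.113 (SE, limma adjusted p = 0.00192), and Ndufa1 did not pass. In purified myotubes Ndufa1 was at 459.5 and 427 in WT and 275 and 329.6 in DKO and Ndufb11 at 292 and 289 in WT and 442 and 335 in DKO.

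The mitochondrially encoded core genes were lower in Rb1 KO, with a median of -0.241 beside -0.965 for the 37 members. In DKO against WT most of those tested were higher. Of 7 genes, mt-Nd3 and mt-Nd4l were listed at or near 0 in all libraries and 5 were tested. In Rb1 KO 4 of 5 fell, beside 34.3% of all rows, and the 5 differences ran from -1.056 to -0.21. In DKO against WT 3 rose and 1 fell, beside 34.0% and 33.9% of all rows. Of the 6 nuclear core subunits described above, 5 fell in both comparisons. The difference between the 2 sets of genes was not tested. All 5 rose in DKO against Rb1 KO, with a median of 0.743, beside 23.1% of all rows rising. mt-Nd1 was at 62013 and 59012 in WT, 78770.3 and 75413 in Kdm5a KO, 30289.5 and 27948 in Rb1 KO and 43482 and 41662 in DKO, and the fall in Rb1 KO was -1.06 ± 0.051 (SE, limma adjusted p = 1.2e-09). mt-Nd4 was at 5546 and 4817 in WT, 6613 and 6279 in Kdm5a KO, 4498 and 4429.6 in Rb1 KO and 7848 and 7117 in DKO, with DKO highest, and DKO against WT differed by 0.53 ± 0.069 (SE, limma adjusted p = 1.89e-05). mt-Nd5 was at 11567 and 10609 in WT, 11768 and 10401 in Kdm5a KO, 9389 and 9775 in Rb1 KO and 16785 and 14973 in DKO, again with DKO highest, by 0.52 ± 0.07 (SE, limma adjusted p = 2.62e-05) over WT. mt-Nd2 was at 4744 and 4649 in WT, 6160 and 5842 in Kdm5a KO, 3216 and 2805 in Rb1 KO and 5304 and 5096 in DKO and mt-Nd6 at 3904 and 3604 in WT, 4153 and 4092 in Kdm5a KO, 3096 and 3253 in Rb1 KO and 6214 and 4636 in DKO. For both, DKO was above Rb1 KO, and for mt-Nd2 close to WT.

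In purified myotubes 2 of the 5 fell in DKO and none rose, beside 18.6% of all rows falling and 21.0% rising. mt-Nd2 was at 21522 and 19419 in WT and 10048 and 7365 in DKO and fell in DKO, with -1.25 ± 0.241 (SE, limma adjusted p = 0.0145). mt-Nd6 was at 4843 and 4156 in WT and 2545 and 1727 in DKO and fell, with -1.10 ± 0.258 (SE, limma adjusted p = 0.0257). mt-Nd1 was at 76541 and 71065 in WT and 42724 and 56351 in DKO, mt-Nd4 at 31685 and 30451 in WT and 22590 and 19648 in DKO and mt-Nd5 at 30792 and 29248 in WT and 17601 and 28489 in DKO, and none of these 3 passed. The DKO difference was lower in purified than in mixed material for 4 of 5, with a median of -1.092, beside 13.2% of all rows. Libraries of ribosome-depleted and oligo(dT)-selected RNA can hold different shares of mitochondrial transcripts, so these levels are not set side by side across the materials. Whether counting used strand was not stated in the labels, and mt-Nd6 lies opposite to the other genes on the mitochondrial DNA.

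Assembly factors, which build the complex but leave it, were measured for 18 genes. In Rb1 KO 10 fell, 1 rose and 7 did not pass, with a median of -0.377, beside 34.3% of all rows falling and 36.8% rising. Dmac1, a factor for the distal membrane arm, was at 596 and 564 in WT, 497 and 533 in Kdm5a KO, 189 and 191 in Rb1 KO and 247 and 267 in DKO and fell, with -1.60 ± 0.115 (SE, limma adjusted p = 5.52e-08). Ndufaf1, of the complex that assembles the proximal membrane arm, was at 413 and 553 in WT, 586 and 623 in Kdm5a KO, 211 and 231 in Rb1 KO and 244 and 241 in DKO and Tmem126b, of the same complex, at 498 and 592 in WT, 597 and 649 in Kdm5a KO, 329 and 345 in Rb1 KO and 349 and 342 in DKO. Both were lower in every mixed-culture library without Rb1. Acad9, another part of that complex, was at 656 and 575 in WT, 694 and 666 in Kdm5a KO, 559 and 533 in Rb1 KO and 348 and 316 in DKO and was lowered when both genes were lost: DKO against Rb1 KO gave -0.72 ± 0.105 (SE, limma adjusted p = 0.00011). Ndufaf2, which holds the place of Ndufa12 during assembly, was at 209 and 206 in WT, 217 and 246 in Kdm5a KO, 540.1 and 605 in Rb1 KO and 405 and 377 in DKO and rose in Rb1 KO, with 1.46 ± 0.126 (SE, limma adjusted p = 3.22e-07), but shares 65.6% of its exonic bases with another gene. Foxred1 and Tmem70 rose in Kdm5a KO, from 659 and 651 to 855 and 842 and from 1123 and 1194 to 1485 and 1368. Ndufaf4 was at 440.3 and 456 in WT, 416 and 359.9 in Kdm5a KO, 362 and 341 in Rb1 KO and 439 and 445 in DKO. In purified myotubes 1 of 18 passed: Dmac2, at 106 and 121 in WT and 241 and 521 in DKO. Over all rows 21.0% rose and 18.6% fell there.

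Regulators of mitochondrial genes moved in both directions: in Rb1 KO, 9 of 18 rose, 8 fell and 1 did not pass. Over all rows 36.8% rose and 34.3% fell. Ppargc1a, the coactivator best known for driving mitochondrial biogenesis, was at 345 and 257 in WT, 409.6 and 390 in Kdm5a KO, 185 and 227 in Rb1 KO and 669 and 614 in DKO. It was lowest in Rb1 KO and highest in DKO, with -0.535 ± 0.153 (SE, limma adjusted p = 0.00728) for Rb1 KO against WT and 1.10 ± 0.153 (SE, limma adjusted p = 3.32e-05) for DKO against WT. In DKO against WT 30 complex I members fell, and a link between them and Ppargc1a was not tested. Esrrg, a nuclear receptor that works with it, was at 191 and 183 in WT, 164 and 187 in Kdm5a KO, 63.5 and 73.3 in Rb1 KO and 841 and 839.9 in DKO, and DKO against Rb1 KO differed by 3.60 ± 0.152 (SE, limma adjusted p = 1.8e-09). Esrrb, its relative, was at 550.4 and 369 in WT, 671 and 520.2 in Kdm5a KO, 23 and 23.5 in Rb1 KO and 9.47 and 13.4 in DKO, low in both genotypes without Rb1. Nrf1, the factor of the NRF1 word above, was at 690.4 and 727 in WT, 713 and 649 in Kdm5a KO, 1420.5 and 1331 in Rb1 KO and 1368 and 1342 in DKO, with a rise of 0.96 ± 0.081 (SE, limma adjusted p = 2.53e-07) in Rb1 KO. Tfam, which packs and transcribes mitochondrial DNA, was at 409 and 545 in WT, 671 and 606 in Kdm5a KO, 898 and 1017 in Rb1 KO and 1299 and 1305 in DKO, with a rise of 1.02 ± 0.123 (SE, limma adjusted p = 8.13e-06). Both Nrf1 and Tfam were higher in all mixed-culture libraries without Rb1 than in those with it, and a link to the members was not tested.

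Gabpa and Gabpb1 are the subunits of the GABP factor. Gabpa was at 1920.3 and 2064 in WT, 2459.7 and 2478 in Kdm5a KO, 1750 and 1742 in Rb1 KO and 2194 and 2190.2 in DKO, and Gabpb1 at 1088 and 1039 in WT, 1251 and 1196 in Kdm5a KO, 1992 and 1760.4 in Rb1 KO and 1594 and 1606 in DKO, highest without Rb1. Yy1 was at 1058 and 1040.4 in WT, 977 and 886 in Kdm5a KO, 1345 and 1531 in Rb1 KO and 1505 and 1525 in DKO and Esrra at 771 and 652 in WT, 543 and 585 in Kdm5a KO, 914 and 971 in Rb1 KO and 700.1 and 653 in DKO. Ppargc1b was at 954 and 1120.3 in WT, 1145 and 1063 in Kdm5a KO, 721 and 632 in Rb1 KO and 1185 and 1086 in DKO, with Rb1 KO lowest. Nrip1, a corepressor of oxidative genes, was at 1435 and 1460.4 in WT, 1639 and 1622 in Kdm5a KO, 1132 and 1206 in Rb1 KO and 1572 and 1697 in DKO. Tfb1m was at 285 and 248 in WT, 345 and 355 in Kdm5a KO, 253 and 225 in Rb1 KO and 253 and 255 in DKO, Ppard at 259.6 and 273 in WT, 333 and 301 in Kdm5a KO, 373 and 392 in Rb1 KO and 245 and 257 in DKO and Ppara at 45.5 and 55.4 in WT, 42.5 and 55.3 in Kdm5a KO, 2.7 and 3.62 in Rb1 KO and 5.26 and 8.69 in DKO, the last lower in both groups without Rb1. In purified myotubes Ppargc1a was at 61.4 and 29.8 in WT and 171 and 205 in DKO and Esrrg at 5.58 and 4.97 in WT and 226 and 296 in DKO, both higher in DKO, by 2.10 ± 0.427 (SE, limma adjusted p = 0.0168) and 5.37 ± 0.362 (SE, limma adjusted p = 0.00128). Esrrb, at 139.5 and 169 in WT and 6.5 and 11.5 in DKO, Ppara, at 33.5 and 37.3 in WT and 0 and 3.14 in DKO, and Nrip1, at 3462 and 3389 in WT and 1395 and 1299 in DKO, fell, and Nrf1 was at 685 and 631 in WT and 1278 and 1053 in DKO. These values describe the regulators beside the members, and a link between them was not tested.

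**Figure D5:**
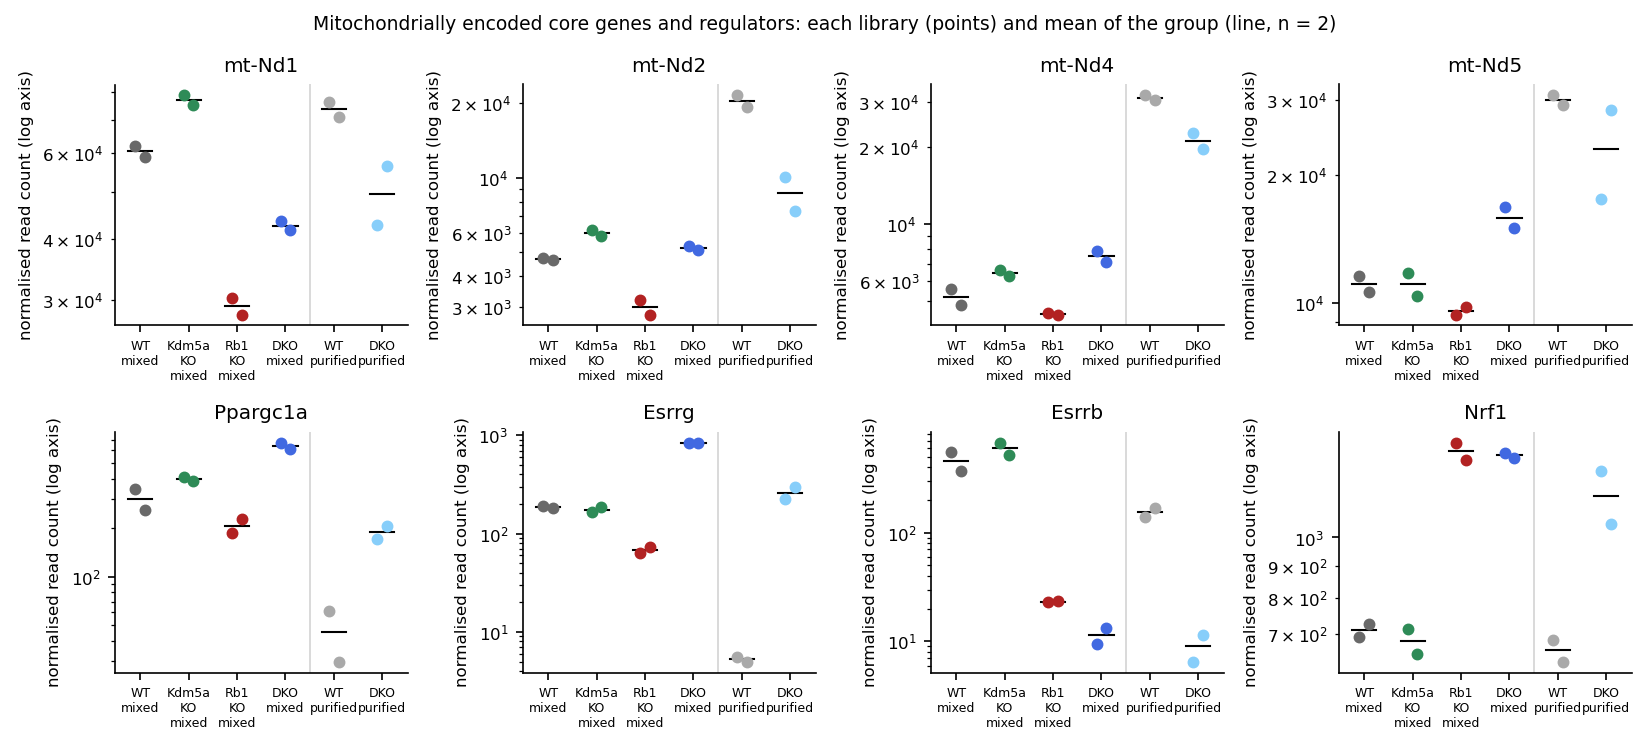
Normalised read count (log axis) of 4 mitochondrially encoded core genes and 4 regulators in each library (points) with the mean of 2 (line). mt-Nd4, mt-Nd5, Ppargc1a and Esrrg are highest among mixed cultures in DKO, Esrrb is low in all groups without Rb1, and Nrf1 is at 1053 to 1420.5 in the groups without Rb1 and at 631 to 727 in the others.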

How the data were processed

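RNA-seq values of 12 libraries were analysed, 2 in each of 6 groups. Per the submitters' processing notes the authors used TopHat 1.2.0, the mm9 genome and DESeq. Not given in the sources used here are the DESeq version, read counter, annotation and strand setting. The deposited signal is a normalised read count per Ensembl gene, a count divided by a size factor of its library. Whole reads could be recovered from all values within 0.01, and a step of 1 read times the library's median-of-ratios factor came to 1.0. Symbols were matched by gene ID for 30983 of 36229 rows.

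Differences were tested with limma 3.58.1 (R 4.3.3) with an intensity trend on log2(value + 1), which understates changes of low genes. Rows with a mean of at least 10 were kept and p-values were adjusted by Benjamini-Hochberg over all of them, with a threshold of 0.05. The 8 mixed libraries shared 1 fit, the 4 purified libraries another, and all 12 were fitted together for the difference between DKO differences. The scripts were checked on simulated data. Alternatives were pseudocounts of 0.1 and 10, no filter, TMM scaling, edgeR 4.0.16 and DESeq2 1.42.0 on recovered reads, a replicate block, fits to the compared groups only, leaving out each library, and leaving out the 16 members that share exons with another gene. Exon and word sharing came from GENCODE M21 on GRCm38; the files' build differs, so no gene coordinates of the files are printed.

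The values of 1 member are not reported here and its row is left out of the plot of differences; counts over the 37 members include it. Named members are the nuclear core otherwise, X-linked members, Ndufa4 and Ndufab1, and in each comparison the 4 largest rises and falls that passed; of the other lists, the mitochondrial core genes and the 4 smallest p-values in each comparison with Ppargc1a. Other names were chosen after their values were seen. The members and lists were chosen with earlier results of these data known. Summed levels of the other marker lists are given among the observations.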

Additional observations from a re-analysis of the deposited data

Results flagged for a closer look

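The effect of Kdm5a loss differed between cultures with and without Rb1 for 11 of 37 members by the interaction test, 7 higher and 4 lower, beside 18.8% and 19.5% of all rows. The share of members was thus close to that of all rows for higher values and below it for lower ones. The log2 value of the difference was 0.64 for Ndufc2, 0.60 for Ndufb7, 0.58 for Ndufa4 and 0.52 for Ndufs8, and -1.27 for Ndufa12, -0.75 for Ndufs6, -0.61 for Ndufv3 and -0.47 for Ndufs3. The positive values belong to membrane-arm members, a complex IV member and a core subunit, and 3 of the 4 negative values to accessory subunits of the matrix arm. Differences between the parts of the complex were not tested here either.

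The DKO difference from WT was unlike in purified myotubes and mixed cultures for 9 of 37 members, all higher, beside 11.6% of all rows higher and 13.2% lower. The largest values were 1.294 for Ndufb2, 1.199 for Ndufb10, 1.174 for Ndufb7 and 0.961 for Ndufb11, each higher in the purified material. The preparation of the libraries differs between these materials and cannot be told apart from the purification. With 2 libraries in each group no test for a single library far from the others was made.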

How the results depend on the processing

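No member that passed reversed its direction under pseudocounts, filter, TMM, edgeR, DESeq2, the replicate block or leaving out a library, and no count of members that passed moved by over 1.5 times except as follows. Leaving out the 16 members with shared exons left 21, of which 7 passed in Kdm5a KO against WT, 19 in Rb1 KO against WT, 17 in DKO against WT (median -1.037), 7 in DKO against Rb1 KO, 18 in DKO against Kdm5a KO, 7 in the interaction and 5 in purified DKO; fewer members were counted. The median of the purified minus mixed difference then became 0.006. Leaving out single libraries gave 6 to 13 members in Kdm5a KO against WT, 7 to 13 in the interaction, 0 to 28 in purified DKO and 6 to 27 in the purified minus mixed difference. There the median ran from -0.031, a reversal without DKO purified replicate 1, to 0.606 without replicate 2; the cause was not tested. A group left with 1 library is assumed to vary like the others. In DKO against WT, mixed, Ndufs4 was lost with no filter, TMM, the block (adjusted p = 0.0561), edgeR and DESeq2, and Ndufab1 gained with TMM, the block (adjusted p = 0.0451), edgeR and the compared groups alone. In purified DKO the block gave 12 falls in place of 7 and lost Ndufa8 (adjusted p = 0.0758) and Ndufab1 (adjusted p = 0.061), and no filter and TMM lost Ndufa8 and Ndufb5. Same-numbered libraries did not deviate together over all rows (correlations from -0.047 to 0.052). With 1 replicate difference per group this cannot exclude a pairing by number, on which the labels are silent. Over the 8 comparisons, the block left 284 member results on the same side of the threshold, edgeR 285 and DESeq2 283. Depth limits Ndufs5, with 8 reads in its lowest library, and Ndufb4, with 12.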

Other observations

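Among the genes of complexes II to V, the muscle form of a cytochrome c oxidase subunit, Cox6a2, had the widest range. It was at 1333 and 1451 normalised counts in WT, 1131 and 1269 in Kdm5a KO, 6.75 and 9.96 in Rb1 KO and 413 and 374 in DKO mixed cultures, with a log2 difference of -7.24 ± 0.166 (SE, limma adjusted p = 1.98e-12) in Rb1 KO against WT and 5.42 ± 0.166 (SE, limma adjusted p = 1.03e-10) in DKO against Rb1 KO. Cox8b, another form found in muscle, was at 369.7 and 330.4, 424 and 444, 75.6 and 45.3, and 306 and 262 in the same order of groups. It did not pass in DKO against WT, with -0.30 ± 0.208 (SE, limma adjusted p = 0.215). No nuclear complex I member was lowered in Rb1 KO by as much as either, since the largest fall was -1.97 for Ndufa9. These 2 genes were named after their values were seen.

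Complex II fell as a whole in Rb1 KO, with 4 of 4 genes lower and a median of -1.192, and so did 8 of 9 genes of complex III, 10 of 13 of complex IV and 11 of 15 of complex V, where 2 rose. Over all rows 34.3% fell and 36.8% rose. In DKO against WT the medians were -0.982, -0.88, -0.432 and -0.38 for complexes II, III, IV and V, beside -0.924 for the 37 complex I members. The differences between complexes were not tested.

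Markers of other cell types had low sums, some of which moved with genotype. Adipocyte markers (7 genes) summed to between 3.72 and 43.2, endothelial markers (5 genes) to between 67 and 358, neural and glial markers (5 genes) to between 59.4 and 384 and epithelial markers (5 genes) to between 2.13 and 73. Macrophage and blood markers (7 genes) summed to between 50.6 and 426 in 11 libraries and to 1052 in DKO purified replicate 2, of which Cd68, a macrophage and lysosome gene, made up 1043. All 4 endothelial markers tested rose in DKO against WT mixed cultures, with a median of 2.481 and sums of 358 and 343 against 99.3 and 94.9, and 3 of 4 rose in purified DKO. Over all rows 34.0% and 21.0% rose in these comparisons. Both neural and glial markers tested also rose in DKO against WT mixed cultures. The part of these markers in the differences of the members was not tested.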
